A study of Mus musculus with 6 samples.

Results

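The cell cycle genes described here are 42 genes chosen by symbol from the 23402 gene rows of an expression table of mouse terminal ileum, the last stretch of the small intestine. Of these, 20 act in DNA replication or in the entry to it (S phase) and 22 act in mitosis (G2/M). All 42 were in the table, and all 42 had a mean of at least 1 FPKM, the level set for testing, which 12695 genes reached. FPKM, a fragment density per kilobase of transcript, is scaled for length and depth, so that levels of different genes can be set side by side.

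RNA was taken from whole terminal ileum of 6 mice, 6 weeks old, that had been drinking dextran sodium sulfate (DSS), a polysaccharide that injures the gut epithelium, and were sampled on day 6. All 6 mice were Il17ra fl/fl: both copies of the gene for a subunit of the interleukin-17 receptor were floxed. The 3 Cre-positive mice (Il17ra fl/fl;Atoh1-cre+, labelled KO) carried a Cre recombinase driven by Atoh1, the gene for the transcription factor of the secretory lineage, and the 3 Cre-negative mice (Il17ra fl/fl;Atoh1-cre-, labelled WT) were littermates without it. Deletion is therefore aimed at Paneth, goblet and enteroendocrine cells and their Atoh1-expressing precursors, while most dividing epithelial cells lie outside that lineage. Mice without DSS were not analysed here. Each library came from 1 mouse, and libraries are called by group and replicate number.

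A cell entering the cycle turns on D and E cyclins, which release the E2F factors that drive the genes of DNA replication. The MCM helicase is loaded on origins by Cdc6 and Cdt1, unwinds the DNA in S phase, and works with the sliding clamp Pcna and the enzymes that make nucleotides. Later, cyclins A and B with Cdk1, the Aurora and Polo kinases, the centromere proteins and the spindle motors carry the cell through mitosis, and the anaphase promoting complex ends it. In the small intestine most division takes place in the crypts, in stem cells and in the transit-amplifying cells above them, and stops as cells move onto the villus. In whole tissue, fewer dividing cells and less of these transcripts in each dividing cell cannot be told apart.

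The promoters of the 2 phases differ in sequence, which is shown here because it is a property that the choice of the genes did not use. RefSeq's promoter table (GRCm38.p6) held 33 of the 42 genes in 35 windows of 300 bases, from 250 before the start of transcription to 50 after it. An E2F core, searched as TTCCCGC or TTCGCGC or TTGCCGC or TTGGCGC on both strands with overlapping matches allowed, was found in 12 of 18 S phase windows (66.7%), in 3 of 17 G2/M windows (17.6%) and in 9.57% of all 32851 windows in the table. The cell cycle homology region (CHR), searched as TTTGAA or TTTAAA on both strands, was found in 33.3% of S phase windows, in 88.2% of G2/M windows and in 27.6% of all windows. The CCAAT box, searched on both strands, was in 66.7% of S phase, 88.2% of G2/M and 37.4% of all windows. Both a CHR and a CCAAT box stood in 14 of 17 G2/M windows (82.4%), in 4 of 18 S phase windows (22.2%) and in 10.7% of all windows. The 3 G2/M genes with an E2F core were Ccnb1, Cdk1 and Mki67. Mcm7 and Uhrf1, both S phase genes, had 2 windows each, and each of these windows held an E2F core. A match is a match of letters only, and binding was not measured here.

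A promoter of 2 helicase subunits and of 2 mitotic genes is printed to show these motifs in place, 250 bases each, from 220 before to 30 after the start, 5′ to 3′ on the strand of the gene. Capitals mark E2F cores in Mcm6 and Mcm7, and CHR elements (TTTGAA or its reverse complement) and CCAAT boxes (CCAAT or ATTGG) in Top2a and Mki67. Where matches on both strands overlap, the capitals run together.
Mcm6, chr1:128359676-128359925, minus strand: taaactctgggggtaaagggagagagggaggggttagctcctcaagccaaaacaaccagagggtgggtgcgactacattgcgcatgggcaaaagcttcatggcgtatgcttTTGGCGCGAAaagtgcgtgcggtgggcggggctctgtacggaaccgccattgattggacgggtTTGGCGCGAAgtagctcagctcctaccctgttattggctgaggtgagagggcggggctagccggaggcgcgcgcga
Mcm7, chr5:138171854-138172103, minus strand: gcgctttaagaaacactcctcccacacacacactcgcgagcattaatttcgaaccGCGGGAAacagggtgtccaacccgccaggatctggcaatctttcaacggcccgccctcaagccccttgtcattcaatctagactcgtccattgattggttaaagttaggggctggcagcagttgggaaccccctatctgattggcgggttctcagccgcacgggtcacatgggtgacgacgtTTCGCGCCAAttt
Top2a, chr11:99024160-99024409, minus strand: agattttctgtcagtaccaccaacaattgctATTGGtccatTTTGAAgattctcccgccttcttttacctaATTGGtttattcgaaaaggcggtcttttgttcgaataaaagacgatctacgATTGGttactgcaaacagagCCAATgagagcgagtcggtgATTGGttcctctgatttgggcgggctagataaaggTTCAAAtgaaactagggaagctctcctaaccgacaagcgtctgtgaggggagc
Mki67, chr7:135716350-135716599, minus strand: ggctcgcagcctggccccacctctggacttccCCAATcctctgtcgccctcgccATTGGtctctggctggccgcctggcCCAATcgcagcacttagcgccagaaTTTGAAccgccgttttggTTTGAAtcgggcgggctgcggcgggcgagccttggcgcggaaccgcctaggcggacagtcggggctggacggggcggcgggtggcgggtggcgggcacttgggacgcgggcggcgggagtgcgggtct
Mcm6 shows a pair of such overlapping stretches, the nearer from 46 to 37 bases before the start, and Top2a shows 2 CHR elements with 5 CCAAT boxes around them.

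Facts of the libraries bear on what follows. Between 16317 and 16547 genes were listed above 0 in each library, and steps in the low values gave estimated depths from 8130000 fragments in Cre-positive 3 to 9770000 in Cre-negative 1. Il17ra itself (GRCm38, chr6:120463247-120487559) was at 6.04, 5.91 and 6.53 FPKM in the Cre-negative and 7.93, 8.36 and 6.07 FPKM in the Cre-positive libraries (exact two-sided permutation p = 0.2, where 0.1 is the smallest possible for 3 against 3). These values do not check the labels, since most cells of the tissue keep the gene and the table does not resolve single exons. Of genes that define the terminal ileum, Fabp6 and Slc10a2, which handle bile acids there, were low (0.316 to 9.79 and 0.0669 to 1.94 FPKM). Both were highest in Cre-negative 3, and in the other libraries they were at most 2.41 and 0.824 FPKM. The bile acid exporters Slc51a and Slc51b and the receptor Cubn were present (103 to 136, 53.7 to 88.9 and 34.4 to 126 FPKM). Cubn too was highest in Cre-negative 3, while Slc51a and Slc51b were highest in other libraries.

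Y-linked transcripts separated the libraries in another way, and the labels do not give the sex of the mice. Cre-negative 1, Cre-negative 2 and Cre-positive 1 had a summed 62.1 to 69.8 FPKM of Ddx3y, Uty, Kdm5d and Eif2s3y, and the other 3 libraries had under 0.2 FPKM of these genes and 148 to 177 FPKM of Xist. The sexes are thus unequally spread over the groups.

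The 2 phases had similar median levels. Mean levels over the 6 libraries ran from 2.46 to 78.1 FPKM for S phase genes, with a median of 14.4, and from 5.60 to 55.7 FPKM for G2/M genes, with a median of 15.1. Pcna and Top2a were the most abundant of each phase and the only members with a mean of 50 FPKM or more. Cdc6, Ccne1, Ccne2 and E2f1, which act before or at the start of replication, were the only members with a mean under 5 FPKM.

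The difference between the groups passed the threshold for none of the 42 genes. With limma's moderated test on log2(FPKM + 1) and Benjamini-Hochberg adjustment over all tested genes, 0 of 42 members passed an adjusted p of 0.05, and 0% of the 12695 tested genes did. At an unadjusted p under 0.05 again 0 of 42 members passed, where 2.54% of all tested genes were higher and 1.07% were lower in the Cre-positive group. The 2 groups overlapped for each of the 42 members, while 5.77% of all tested genes were higher without overlap and 2.60% were lower without overlap. The fitted log2 fold change, Cre-positive over Cre-negative, was above 0 for 20 of 20 S phase genes and 20 of 22 G2/M genes. It was above 0 for 7414 of all 12695 tested genes. Its median was 0.20 for S phase, 0.13 for G2/M and 0.03 for all tested genes. The 2 members below 0, named after their values were seen, were Nusap1, a spindle protein, at -0.03, and Cdk1, the mitotic kinase, at -0.01. The direction rested on single libraries. Without Cre-negative 3 the medians were 0.03 for S phase and -0.03 for G2/M, and 19 of 42 members were above 0. Without Cre-positive 3 they were 0.09 and 0.01, and 28 of 42 were above 0. The members share the same 6 libraries and move together, so the count of signs is a description of these libraries and not a test. The median standard error of a member's log2 fold change was 0.21, against 0.13 for all tested genes.

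**Figure D1:**
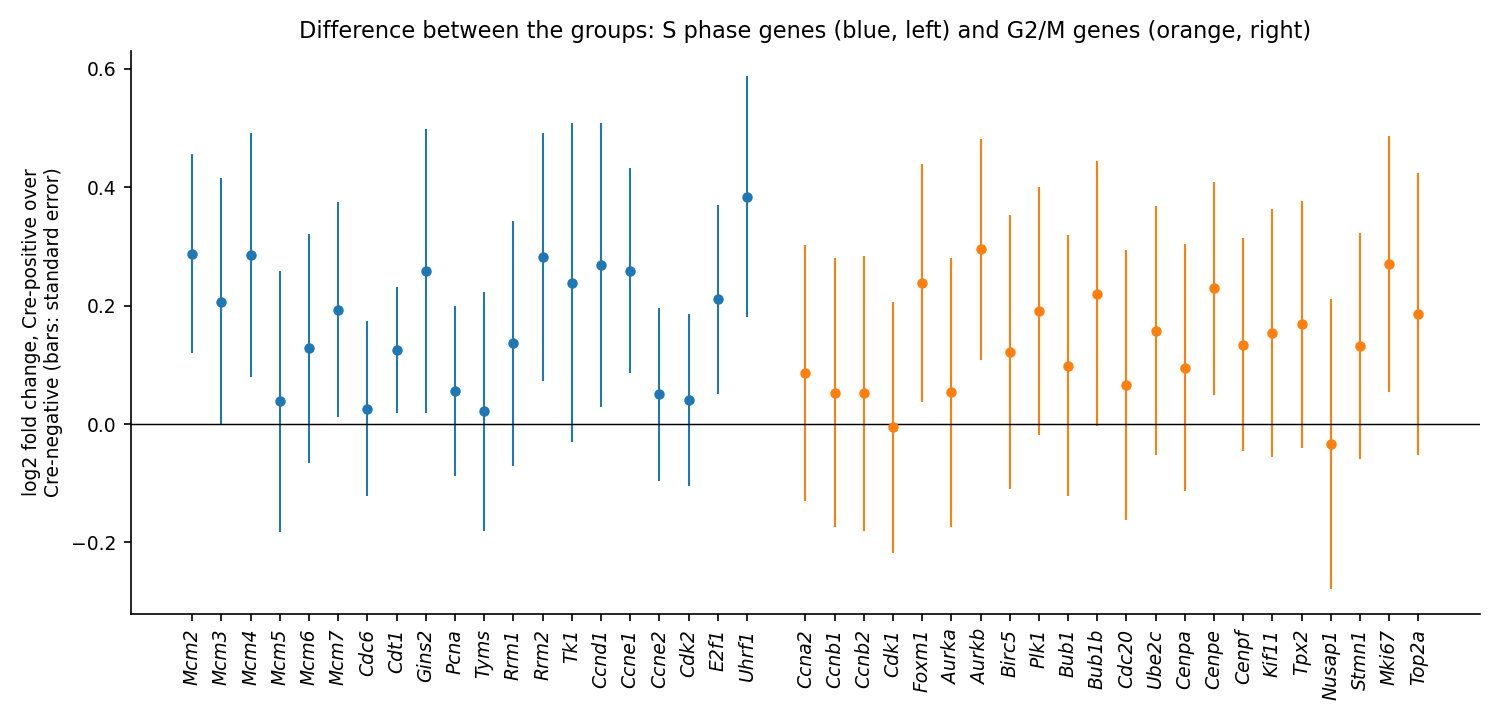
Fitted log2 fold change (y axis, Cre-positive over Cre-negative, on log2(FPKM + 1)) with its standard error for each of the 42 genes (x axis), S phase in blue and G2/M in orange. Points lie between -0.03 (Nusap1) and 0.38 (Uhrf1), and the adjusted p is 0.998 for each gene.

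Among the helicase subunits, which unwind DNA at the fork, Mcm6 was the most abundant. It was at 37.6, 30.5 and 22.9 FPKM in the Cre-negative libraries and 26.9, 34.1 and 37.7 FPKM in the Cre-positive ones, so that the highest values of both groups were nearly the same. Mcm2, the subunit with the smallest p value, was at 12.3, 12.8 and 9.78 FPKM against 11.1, 16.2 and 16.3 FPKM. Cre-positive 2 and 3 lay above each Cre-negative library, and Cre-positive 1 lay inside their range. On the log2 scale the Cre-positive group was 0.29 higher (SE 0.17, adjusted p = 0.998 by limma). This value was between 0.18 (without Cre-negative 3) and 0.46 (without Cre-positive 1) when each library was left out in turn. The median over the 6 subunits was 0.20.

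The ratios between transcripts of these subunits varied over the libraries, and this variation was not tested. Mcm6 stood at 3.06 times the level of Mcm2 in Cre-negative 1 and at 2.11 to 2.42 times in the other libraries. It was at 1.08 to 1.29 times the level of Mcm7 over the 6 libraries. Mcm5 was lowest in Cre-negative 3 and Cre-positive 1, at 11.3 and 12.9 FPKM, and at 17.9 to 19.6 FPKM in the other 4 libraries. Like the ratios below, it was picked for description after its values were seen.

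Pcna, the sliding clamp that holds the polymerases, was at 92.4, 75.0 and 63.6 FPKM in the Cre-negative and 73.5, 79.6 and 84.8 FPKM in the Cre-positive libraries. The Cre-positive values lay inside the Cre-negative range. Cdt1, which loads the helicase and is degraded once replication starts, had the narrowest spread of all members, from 12.3 to 15.4 FPKM. It stood at 4.81 to 7.97 times the level of its partner Cdc6, with the highest ratio in Cre-positive 1.

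Of the enzymes of nucleotide supply, thymidine kinase Tk1 was at 26.6, 23.6 and 13.8 FPKM in the Cre-negative and 17.7, 27.2 and 30.4 FPKM in the Cre-positive libraries. Its highest value was 2.20 times its lowest, the second widest ratio among the members. Rrm1 and Rrm2, the large and small subunits of ribonucleotide reductase, were in a ratio of 1.20 to 1.63. The median log2 fold change of the 4 enzymes was 0.19.

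Cyclin D1 (Ccnd1), which links growth signals to the cycle, had the widest ratio of highest to lowest, 2.22. It was at 35.9, 34.7 and 25.0 FPKM in the Cre-negative and 29.2, 34.2 and 55.3 FPKM in the Cre-positive libraries, with its highest value in Cre-positive 3 and its lowest in Cre-negative 3. Cyclin E1 (Ccne1), which drives the entry to S phase, was at 2.07, 2.46 and 2.17 FPKM against 2.12, 2.84 and 3.83 FPKM (log2 fold change 0.26, SE 0.17, limma adjusted p = 0.998). Without Cre-positive 3 that fold change was 0.10 and that of Ccnd1 was 0.01. Cyclin E2 followed another order, and the ratio of Ccne2 to Ccne1 ran from 0.992 in Cre-positive 3 to 1.73 in Cre-negative 2.

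Uhrf1, which reads hemimethylated DNA behind the fork and brings in the methyltransferase Dnmt1, had the smallest p value of all members. It was at 18.7, 18.6 and 11.6 FPKM in the Cre-negative libraries (mean 16.3 ± 4.07, SD, n = 3) and 17.0, 24.2 and 22.9 FPKM in the Cre-positive ones (mean 21.4 ± 3.80, SD, n = 3). The groups overlapped through Cre-positive 1, which lay below Cre-negative 1 and 2. On the log2 scale the Cre-positive group was 0.38 higher (SE 0.20, adjusted p = 0.998 by limma), and this value was between 0.17 and 0.53 when each library was left out in turn.

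Cyclin A2 (Ccna2) was the most abundant of the mitotic cyclin group, at 37.2, 35.7 and 23.4 FPKM in the Cre-negative and 26.5, 33.4 and 42.3 FPKM in the Cre-positive libraries. Both groups had 1 low library and their ranges overlapped widely. Cyclins B1 and B2, the partners of Cdk1, kept the most even proportion of the pairs described here, with Ccnb2 at 1.38 to 1.51 times Ccnb1. Cdk1 against Cdk2, the kinase of S phase, ran from 0.878 in Cre-negative 3 to 1.30 in Cre-negative 1. The median log2 fold change of the cyclins, Cdk1 and the factor Foxm1 was 0.05, the smallest of the role groups.

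**Figure D2:**
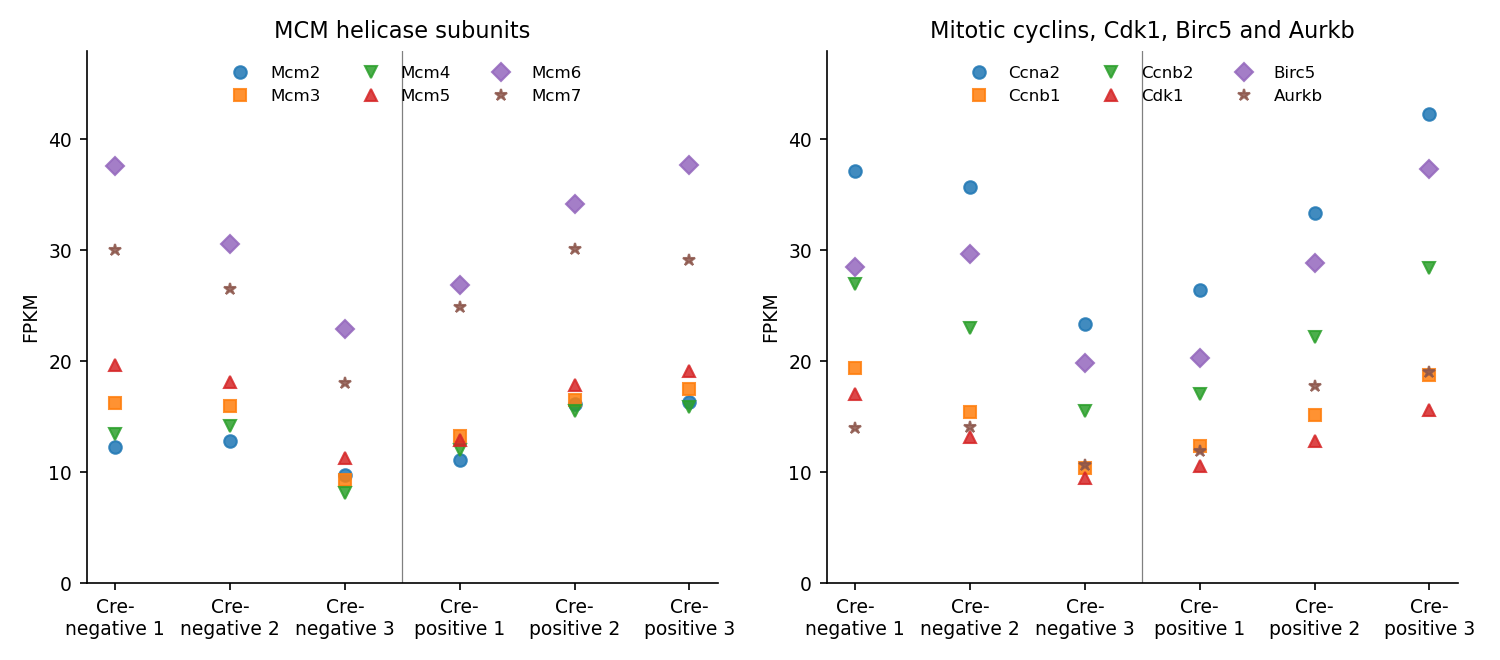
FPKM (y axis) of the 6 helicase subunits (left) and of Ccna2, Ccnb1, Ccnb2, Cdk1, Birc5 and Aurkb (right) in each of the 6 libraries (x axis), 1 symbol per gene. Symbols of Cre-negative 3 and Cre-positive 1 sit low in both panels, such as Mcm6 at 22.9 and 26.9 FPKM.

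Among kinases and checkpoint genes, Birc5, the survivin of the chromosomal passenger complex, was at 28.5, 29.7 and 19.9 FPKM against 20.3, 28.9 and 37.3 FPKM. Aurkb, the kinase of the same complex, was at 14.0, 14.1 and 10.6 FPKM against 11.9, 17.7 and 19.1 FPKM. The fold change of Aurkb had the smallest p value of the G2/M genes (log2 fold change 0.30, SE 0.19, limma adjusted p = 0.998). Leaving out each library in turn gave 0.17 (without Cre-negative 3) to 0.49 (without Cre-positive 1). Cre-positive 2 and 3 lay above each Cre-negative library, and Cre-positive 1 lay inside their range.

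Ube2c, the ubiquitin-conjugating enzyme of the anaphase promoting complex, was at 44.6, 47.6 and 32.1 FPKM in the Cre-negative and 34.0, 51.3 and 54.7 FPKM in the Cre-positive libraries. It stood at 2.06 to 2.67 times the level of Cdc20, the activator of the complex. The centromeric histone Cenpa was at 19.4, 14.5 and 11.5 FPKM against 12.8, 15.8 and 19.9 FPKM. Cenpe, the kinetochore motor, was at 8.04, 7.49 and 5.98 FPKM against 6.42, 9.18 and 10.4 FPKM (log2 fold change 0.23, SE 0.18, limma adjusted p = 0.998). Leaving out Cre-positive 3 took the log2 fold change of Cenpe to 0.10, and leaving out Cre-positive 1 took it to 0.41. Both centromere genes were low in 1 library of each group.

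Stmn1, which destabilises microtubules, was the most abundant of the spindle group, at 55.8, 47.2 and 34.6 FPKM against 40.7, 56.5 and 52.5 FPKM. Top2a, the topoisomerase that untangles sister chromatids, was at 64.5, 54.8 and 37.1 FPKM against 43.7, 61.5 and 72.4 FPKM. Mki67, the coat of mitotic chromosomes and a common marker of dividing cells, was at 48.9, 45.9 and 31.0 FPKM against 37.9, 54.6 and 59.6 FPKM (log2 fold change 0.27, SE 0.22, limma adjusted p = 0.998). When each library was left out, the log2 fold change of Mki67 was between 0.07 (without Cre-negative 3) and 0.46 (without Cre-positive 1). The order of the libraries was the same for Mki67 as for Top2a except that Cre-negative 1 and Cre-positive 2 changed places, and Top2a stood at 1.13 to 1.32 times Mki67.

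The 42 genes varied more between libraries than most genes did, and the variation was shared. Over the 6 libraries the median SD on the log2(FPKM + 1) scale was 0.307 for the members and 0.163 for all tested genes. The median ratio of the highest to the lowest library was 1.81 for the members, 1.74 for S phase, 1.83 for G2/M and 1.41 for all tested genes. G2/M genes were more alike in this ratio, from 1.59 to 1.95, than S phase genes, from 1.26 to 2.22. Cre-negative 3 was the lowest library for 35 of 42 members, and Cre-positive 3 was the highest for 28 of 42. Over all tested genes the same libraries were the lowest for 38.6% and the highest for 22.9%. Cre-negative 3 and Cre-positive 1 were together the 2 lowest libraries for 38 of 42 members, made up of 16 of 20 S phase and 22 of 22 G2/M genes, and for 23.7% of all tested genes. Cdt1, E2f1, Ccne1 and Ccne2 stood apart from this order, the last 2 with their lowest value in Cre-negative 1. Of these, E2f1, Ccne1 and Ccne2 had a mean under 5 FPKM, and so did Cdc6, which followed the order.

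A level of each phase was set per library as the median, over its genes, of log2(FPKM + 1) minus the gene's mean over the 6 libraries. The S phase level was 0.10, 0.01 and -0.44 in the Cre-negative and -0.20, 0.16 and 0.26 in the Cre-positive libraries. The G2/M level was 0.20, 0.02 and -0.43 against -0.30, 0.16 and 0.37. Both phases were thus lowest in Cre-negative 3, next lowest in Cre-positive 1 and highest in Cre-positive 3. The same level over all tested genes was between -0.09 and 0.05, and it was also lowest in Cre-negative 3. With median-of-ratios scaling the S phase and G2/M levels of Cre-negative 3 were -0.33 and -0.32, still the lowest. With an equal sum of FPKM, those of Cre-negative 1 were -0.04 and 0.05.

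Between the groups, the level of S phase was -0.11 ± 0.29 (SD, n = 3) in Cre-negative and 0.07 ± 0.24 (SD, n = 3) in Cre-positive libraries. For G2/M it was -0.07 ± 0.32 (SD, n = 3) and 0.08 ± 0.34 (SD, n = 3). Each of these differences was smaller than the SD within a group. The balance of the phases, S phase minus G2/M, was -0.11, -0.01 and -0.02 in the Cre-negative and 0.10, -0.004 and -0.11 in the Cre-positive libraries. Its means were -0.04 ± 0.05 (SD, n = 3) and -0.004 ± 0.10 (SD, n = 3). The lowest value in both groups was -0.11, and the highest was in Cre-positive 1. Cre-positive 2 lay so near 0 that its sign changed with the processing, to 0.02 with a pseudocount of 0.1 and after quantile normalization.

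**Figure D3:**
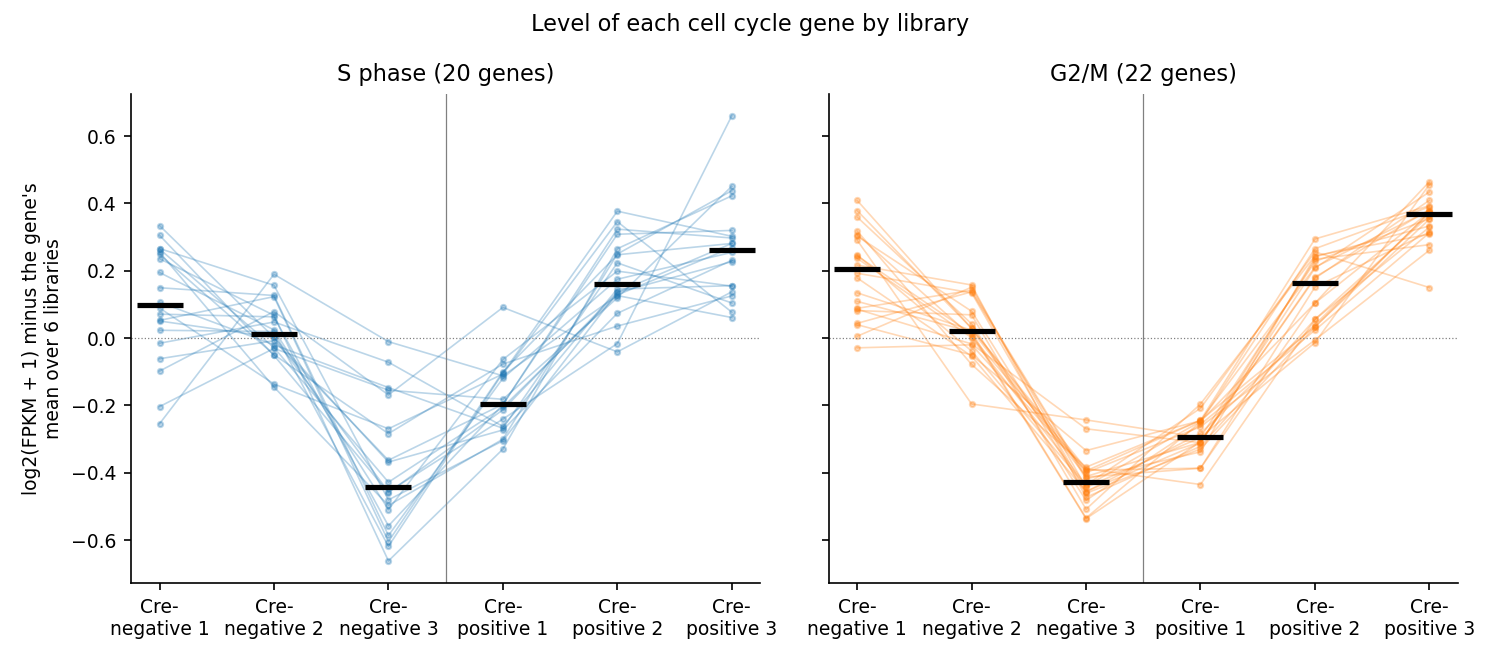
Level of each gene (y axis, log2(FPKM + 1) minus the gene's mean over the 6 libraries) by library (x axis), S phase left and G2/M right; thin lines join the values of 1 gene and carry no order of libraries, and black bars are medians. The medians of Cre-negative 3 are at -0.44 and -0.43, below those of the other 5 libraries in both phases.

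Other genes of the cycle came from lists that hold none of the 42. Of 36 other replication genes (polymerases, origin recognition, clamp loader and others), 26 had a log2 fold change above 0, with a median of 0.08. Over all tested genes 7414 of 12695 were above 0, with a median of 0.03. Of the 36 replication genes, 0 passed an unadjusted p of 0.05. Pold1, the catalytic subunit of polymerase delta, had the smallest p value (log2 fold change 0.33, limma adjusted p = 0.998), and Rfc3, a clamp loader subunit, was among the 10 below 0, at -0.28. Of 45 other mitosis genes tested, 39 were above 0, with a median of 0.12. Only Pttg1, the securin that holds back separase, had an unadjusted p under 0.05 among them, and it was lower (log2 fold change -0.36, limma adjusted p = 0.998). It was at 21.8, 21.6 and 16.1 FPKM in the Cre-negative and 17.1, 14.2 and 14.3 FPKM in the Cre-positive libraries. Cre-negative 3 and Cre-positive 1 were the 2 lowest libraries for 43 of the 46 listed mitosis genes and 25 of the 36 listed replication genes. The summed level was highest in Cre-positive 3 for the mitosis genes (645 FPKM) and in Cre-negative 1 for the replication genes (432 FPKM).

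Genes of G1 and of cell cycle arrest were also counted. Of 14 other G1 cyclins, kinases and E2F factors, 9 were above 0, where 7414 of all 12695 tested genes were. Cre-negative 3 and Cre-positive 1 were the 2 lowest libraries for 7 of the 14 and for 5 of the 16 listed brakes. Over all tested genes they were so for 23.7%. Cyclin D2 (Ccnd2) was at 88.8, 79.5 and 77.0 FPKM against 91.8, 96.6 and 103.4 FPKM (log2 fold change 0.25, limma adjusted p = 0.998). Its groups did not overlap, where 5.77% of all tested genes were higher without overlap. Only Ccnd2 of the 14 had an unadjusted p under 0.05 (limma), where 2.54% of all tested genes were higher at that p. Of 15 tested brakes on the cycle, 9 were above 0, with a median of 0.02, and none of the 15 had an unadjusted p under 0.05. The summed level of the brakes ran from 335 to 356 FPKM, while single brakes varied more. Ccng2, a cyclin linked to arrest, was at 29.1, 43.6 and 48.9 FPKM in the Cre-negative and 54.7, 31.3 and 27.0 FPKM in the Cre-positive libraries, highest in Cre-positive 1 and Cre-negative 3. Cdkn1a (p21), the inhibitor induced by p53, was at 51.2, 72.3 and 75.9 FPKM in the Cre-negative and 60.9, 64.9 and 61.7 FPKM in the Cre-positive libraries, and both genes were chosen after their values were seen. The difference in order between these lists and the members was not tested.

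Sums of some epithelial marker lists differed in the libraries with low cell cycle levels. The summed level of 8 enterocyte genes was 4846, 5964 and 9312 FPKM in the Cre-negative and 8661, 4370 and 3421 FPKM in the Cre-positive libraries. It was highest in Cre-negative 3 and Cre-positive 1, which had the lowest cell cycle levels, although those libraries held the 2 highest values for only 4 of the 8 genes (Cubn, Alpi, Apoa1 and Fabp2). Most of that sum was Apoa1 (1728 to 5837 FPKM) and Fabp2 (1241 to 2947 FPKM). The sum of 8 crypt stem cell genes was 756, 633 and 464 against 384, 645 and 683 FPKM, lowest in the same 2 libraries, which were the 2 lowest for 5 of the 8 genes. Most of the stem cell sum was Olfm4 (223 to 563 FPKM), while Lgr5 stayed at 2.87 to 3.40 FPKM. The sum of goblet cell genes was also highest in Cre-negative 3 and Cre-positive 1, at 6593 and 6680 FPKM against 5106 to 5727 FPKM in the other 4 libraries, although only 2 of its 6 genes had their 2 highest values there. Paneth cell genes summed to 7416 to 14610 FPKM, highest in Cre-negative 1, and those 2 libraries were neither the 2 lowest nor the 2 highest for any of the 6 genes. The part of these cells in the cell cycle values was not tested.

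Lymphocyte markers took another order of libraries. The sum of naive B cell genes was 16.1, 12.8 and 7.42 FPKM in the Cre-negative and 73.7, 89.6 and 11.3 FPKM in the Cre-positive libraries, so that Cre-positive 1, low in cell cycle genes, was high in B cell genes. Germinal centre B cell genes summed to 26.9 to 38.3 FPKM, T cell genes to 19.1 to 38.6 FPKM and macrophage genes to 139 to 185 FPKM. Over the 6 libraries, smooth muscle genes to 525 to 842 FPKM and fibroblast genes to 205 to 302 FPKM. No gene of the lists just named that was in the table was at 0 in all 6 libraries, and the part of these cells was not tested.

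**Figure D4:**
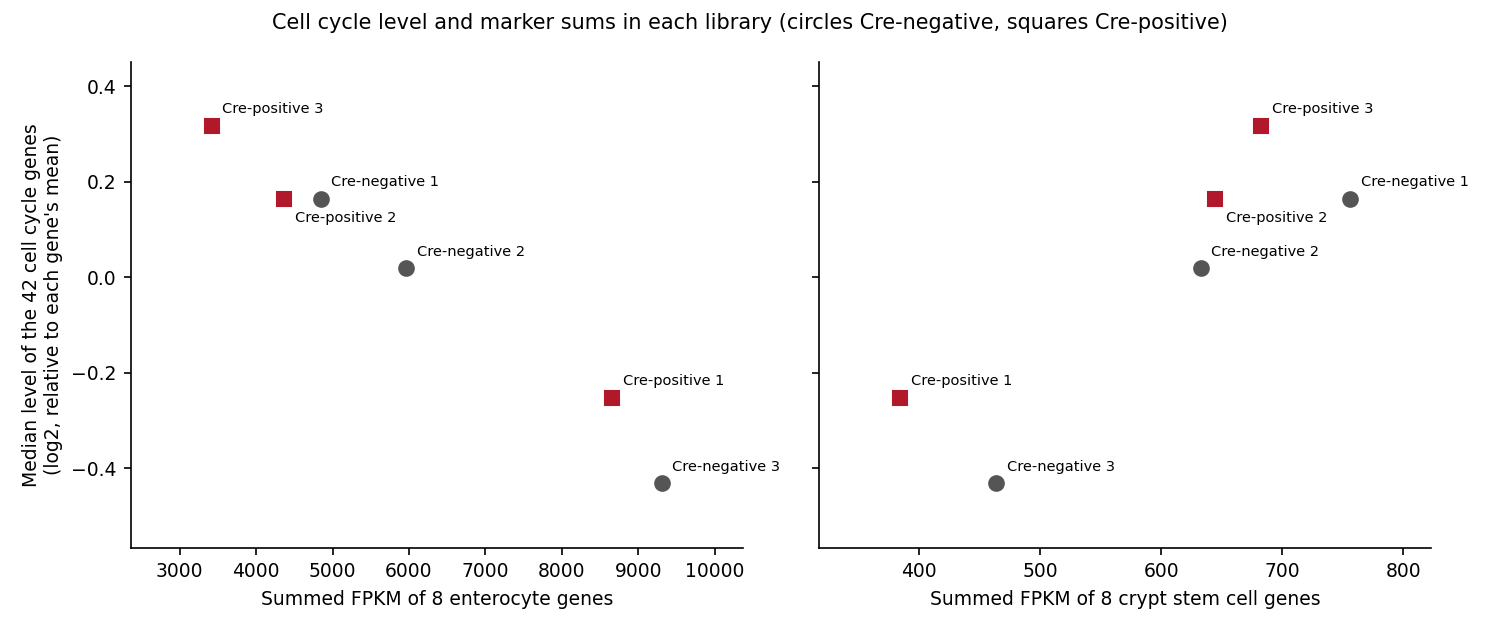
Median level of the 42 cell cycle genes (y axis, log2 relative to each gene's mean) against the summed FPKM of 8 enterocyte genes (left) and 8 crypt stem cell genes (right), 1 point per library, circles Cre-negative and squares Cre-positive. Cre-negative 3 and Cre-positive 1, the 2 lowest points, have enterocyte sums of 9312 and 8661 FPKM and stem cell sums of 464 and 384 FPKM.

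Within the sets of libraries with and without Y-linked transcripts, the difference between the groups had opposite signs. Among the 3 libraries with Y-linked transcripts, Cre-positive 1 against Cre-negative 1 and 2, the log2 difference was below 0 for 41 of 42 members, with a median of -0.34 and Cdt1 as the exception at 0.10. Among the 3 without, Cre-positive 2 and 3 against Cre-negative 3, it was above 0 for 42 of 42, with a median of 0.67. The medians over all tested genes were -0.04 and 0.14. Of the 12695 tested genes, 7438 were below 0 among the libraries with Y-linked transcripts, and 8754 were above 0 among those without. Tk1 was at -0.48 and 1.01, and Mki67 at -0.31 and 0.86. Both differences were free of overlap for 38 of 42 members, 16 S phase and 22 G2/M, where 30.0% of all tested genes were so. These are the members with Cre-negative 3 and Cre-positive 1 as their 2 lowest libraries, from which this pattern follows by arithmetic.

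The difference between those differences was fitted as an interaction term, added after the data were seen. It had an unadjusted p under 0.05 for 35 of 42 members, where 20.7% of all tested genes did, and an adjusted p under 0.05 for 0 of 42, where 0.0788% did. The smallest adjusted p of a member was 0.0805, for Tk1 (limma). The members move together over the same 6 libraries, so these counts over members are a description and not a test. In each set 1 side is a single library, which the fit takes to vary like the others, and these are Cre-positive 1 and Cre-negative 3, the 2 libraries with low cell cycle levels. The difference over all 6 libraries thus had the same sign as in the set without Y-linked transcripts and the opposite sign to the set with them, and sex, group and single libraries cannot be told apart with 1 mouse on a side.

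**Figure D5:**
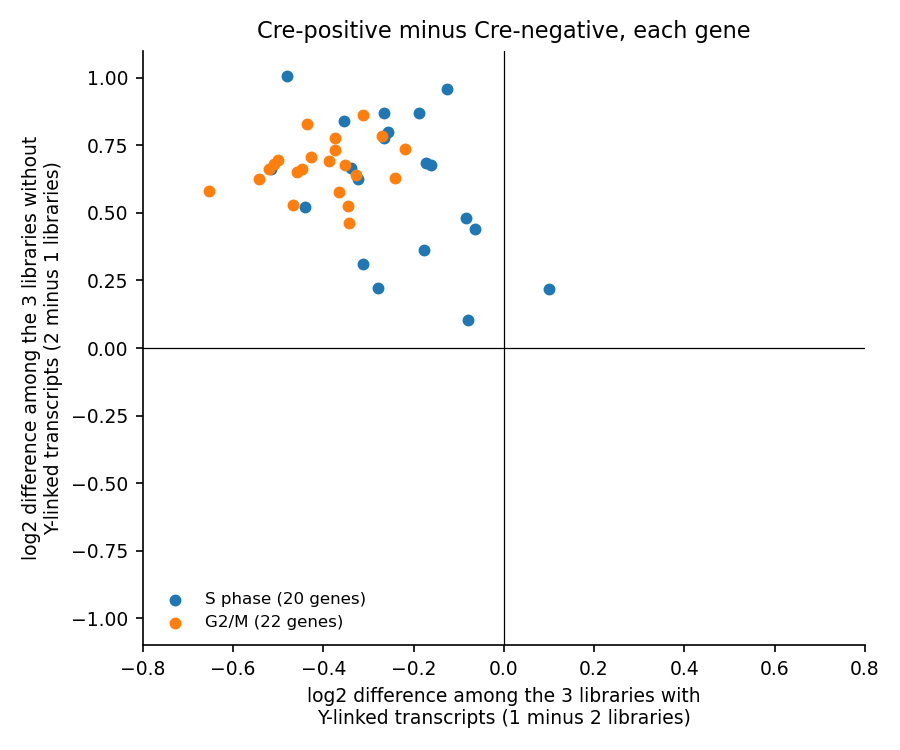
Log2 difference of each gene, Cre-positive minus Cre-negative, among the 3 libraries with Y-linked transcripts (x axis) and among the 3 without them (y axis), S phase in blue and G2/M in orange. Except for Cdt1 at 0.10 on the x axis, the points lie left of 0, and all 42 lie above 0 on the y axis.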

How the data were processed

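RNA of whole terminal ileum from 6 mice (3 per group, separate animals per the labels) was sequenced from directional NEBNext Ultra II libraries, per the labels' protocols. The authors deposited 1 table of FPKM values. The submitters' processing notes name STAR, Cufflinks and Cuffnorm, besides FastQC, Trimmomatic, bedtools and SAMtools, and the builds GRCm38 and mm10. Of versions, scaling between libraries and use of strand, nothing is given in the sources used here. A count model was not used, because FPKM are not counts.

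Genes whose mean reached 1 FPKM were tested with limma's moderated test with trend on log2(FPKM + 1), two-sided, with Benjamini-Hochberg adjustment over 12695 genes and a threshold of 0.05. This scale understates changes of low genes. The scripts were tested on simulated data. Depths were estimated from steps in the low values: 76.9% to 78.9% of ratios to Cre-negative 1 matched ratios of whole numbers. Without counts, no counting interval is given. Libraries correlated at 0.980 to 0.985 (Spearman, across genes, which are not independent), and none was a duplicate.

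Values in each library are given for the most abundant gene of each role, the 3 genes of each phase with the smallest p and the 3 with the widest ratio, and exceptions are said. Lists give up to 4 genes with the smallest p. The members and lists were chosen with earlier results of these data known. Alternatives were other pseudocounts, filters, scalings and limma settings, a replicate block and leaving out each library. The sex term, and the interaction with the split by Y-linked transcripts (summed over or under 1 FPKM), were added after the data were seen. Coordinates are GENCODE M21 (GRCm38), and promoters are RefSeq's (GRCm38.p6). Analyses ran in Python 3.11.15 with numpy 2.4.6, pandas 2.3.3 and matplotlib 3.10.9, and in R 4.3.3 with limma 3.58.1.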

Additional observations from a re-analysis of the deposited data

Results flagged for a closer look

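The difference between Cre-positive and Cre-negative libraries had opposite signs in the libraries with and without Y-linked transcripts. For 38 of 42 cell cycle genes, Cre-positive 1 was below both Cre-negative libraries with Y-linked transcripts, and Cre-positive 2 and 3 were above the Cre-negative library without them. Such a pattern follows by arithmetic wherever Cre-negative 3 and Cre-positive 1 are the 2 lowest libraries of a gene. They were so for the same 38 members. Over all tested genes 30.0% had this pattern, and 23.7% had this pair lowest. The 4 members without it were Cdt1, Ccne1, Ccne2 and E2f1, all S phase genes. Ccne1, Ccne2 and E2f1 had means of 2.58, 3.63 and 3.00 FPKM, below the lowest G2/M mean of 5.60, and Cdt1 had the narrowest spread. Cdc6, the member with the lowest mean (2.46 FPKM), did have the pattern. The interaction passed an unadjusted p of 0.05 for 35 members, against 20.7% of all tested genes, and an adjusted p of 0.05 for 0 (limma). The members move together over the same libraries, so these counts over members are a description and not a test. In each set 1 side is a single library, Cre-positive 1 or Cre-negative 3, and this split was made after the data were seen.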

How the results depend on the processing

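No cell cycle gene passed an adjusted p of 0.05 under any setting run, and direction was the less stable part. Over all tested genes, 0 passed as reported (323 were higher and 136 lower at an unadjusted p under 0.05, limma), 2 with a pseudocount of 0.1, 2 with a pseudocount of 5, 24 with array weights, 2 after rescaling to an equal sum, 1 with the replicate block and 0 to 46 when a library was left out (46 without Cre-positive 3). Members with an unadjusted p under 0.05 numbered 0 as reported, 5 with array weights and 1 after rescaling to an equal sum. When a library was left out they numbered 0 to 5 (5 without Cre-positive 1). The share of all tested genes at this p was not counted in these other settings. The member counts are therefore a description only. The median log2 fold change of S phase genes was 0.12 to 0.30 over the settings other than leaving out a library, and that of G2/M genes 0.10 to 0.24, highest after rescaling to an equal sum, which also moved the median of all genes from 0.03 to 0.13. Leaving out a library moved S phase to between 0.03 and 0.32 and G2/M to between -0.03 and 0.32, both lowest without Cre-negative 3, where 19 of 42 members were above 0. The S phase median minus the G2/M median was 0.067, and -0.023 to 0.075 when a library was left out, 0.0050 with a pseudocount of 5 and 0.0086 with array weights. Members above 0 numbered 28 without Cre-positive 3, 34 without Cre-positive 2, 42 without Cre-positive 1, 38 with median-of-ratios scaling, 37 with quantile normalization, 35 with array weights and 39 with a sex term. Cdt1 moved to -0.04 with array weights. The cause of these shifts was not tested. Deviations of same-numbered libraries correlated at -0.13, 0.03 and -0.11. With so few libraries these values cannot show whether the replicate numbers pair the mice. The block changed no call of a member. A filter of 5 FPKM leaves 38 members. With 3 mice a group and a median standard error of 0.21, small changes of these genes were not detectable.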

Other observations

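Smc4, the partner of Smc2 in condensin, was listed at 0 in all 6 libraries, while Smc2 was at 8.79 to 16.8 FPKM. Whether Smc4 was not transcribed or its fragments were not assigned to it was not tested, so the 0 is not read as absence.

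Cdkn1b (p27), a brake on entry to S phase, was at 25.7 to 27.7 FPKM in the 6 libraries.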
